A study of Mus musculus with 32 samples.

Results

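Clear cell sarcomas of the mouse that had been started by TATCre were compared with clear cell sarcomas started by Rosa26CreER, using the RNA of the tumours. The groups were taken from the tissue labels, which put 4 libraries in the TATCre group and 5 in the Rosa26CreER group, so that 9 of the 32 libraries of the series enter the contrast. The other libraries are 4 clear cell sarcomas started by Prx1CreERT2 (2) or Bmi1IRESCreERT2 (2), 7 osteosarcomas, 6 synovial sarcomas and 6 controls, whose titles read Bone in 1 and Chest in 5. The titles of all 13 clear cell sarcomas carry EA1, which the labels do not explain, and the controls carry no such mark. Osteosarcoma titles carry Prx1CreRb1p53 or Col1CreRb1p53, and synovial sarcoma titles carry Myf5-SSM2/PLUC. The labels give no strain, age, sex, dose, time or animal for any of these libraries, and do not say whether the controls carry a Cre or were treated. TATCre titles also carry a word after the number, RLN and Rleg for the 2 libraries numbered N123, Lleg for N178 and Larm for N179, while Rosa26CreER titles carry only N1 to N5. If these words name sites, site and Cre cannot be told apart.

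In patients, clear cell sarcoma arises in tendons and other deep soft tissue and is driven by a fusion of EWSR1 with ATF1, the latter a transcription factor of the cyclic AMP response. Cre is a recombinase that cuts out DNA between its target sites and so switches on an engineered allele. TATCre is a Cre protein joined to a peptide that carries it into cells, so it acts on the cells it reaches where it is applied. Rosa26CreER is a Cre made from the Rosa26 locus, which is active in nearly all cell types, and works once tamoxifen is given. Prx1 is active in limb mesenchyme and Bmi1 in several kinds of stem and progenitor cells. The cell in which a tumour began can differ between these routes, and the comparison asks how far the tumours differ in their RNA.

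The values were RPKM, reads scaled to transcript length and to the depth of the library, for transcripts with UCSC identifiers. Neither the table nor the reference tables used here pair these identifiers with gene names, so transcripts are given by identifier and no gene, pathway or cell type marker is named. For the same reason the labelled tissue could not be checked against its defining genes. In bulk tissue, a lower value can come from fewer cells of a type or from less RNA per cell, and these cannot be told apart. Depth, recovered from the steps between the lowest values, was 9.17 to 11.5 M reads in TATCre and 8.11 to 11.02 M in Rosa26CreER libraries. Nothing says which libraries came from separate animals, and the TATCre libraries N123-RLN and N123-Rleg may share an animal. The p-values therefore measure only the spread between these libraries, which may be technical in part.

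Of 15195 tested transcripts, 1928 differed between TATCre and Rosa26CreER tumours (12.7%, limma, adjusted p under 0.05). This fit counted N123-RLN and N123-Rleg as separate libraries, and averaging them gave 1228 calls among 15109 tested. In the fit with both kept apart, the calls were as follows. TATCre was higher for 840 of the 1928 transcripts (5.53% of all tested) and lower for 1088 (7.16%). At least a 2-fold difference was reached by 681 higher (4.48%) and 926 lower calls (6.09%), and at least an 8-fold difference by 152 higher and 121 lower calls. Fold changes are on the log2(RPKM + 1) scale, which understates the change of low transcripts. The 4 TATCre libraries did not overlap with the 5 Rosa26CreER libraries at 670 of the higher and 751 of the lower calls. Over all 15195 tested transcripts, called or not, they did not overlap at 2169, with TATCre higher at 905 and lower at 1264. The direction of the calls depended on the scaling of the libraries. The median log2 fold change over all tested transcripts was -0.28 on the values as deposited, with 43.6% of the calls higher in TATCre. After quantile normalization that median was 0.000892, and 65.2% of 1660 calls were higher. With median-ratio scaling, 52.8% of 1864 calls were higher.

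**Figure D1:**
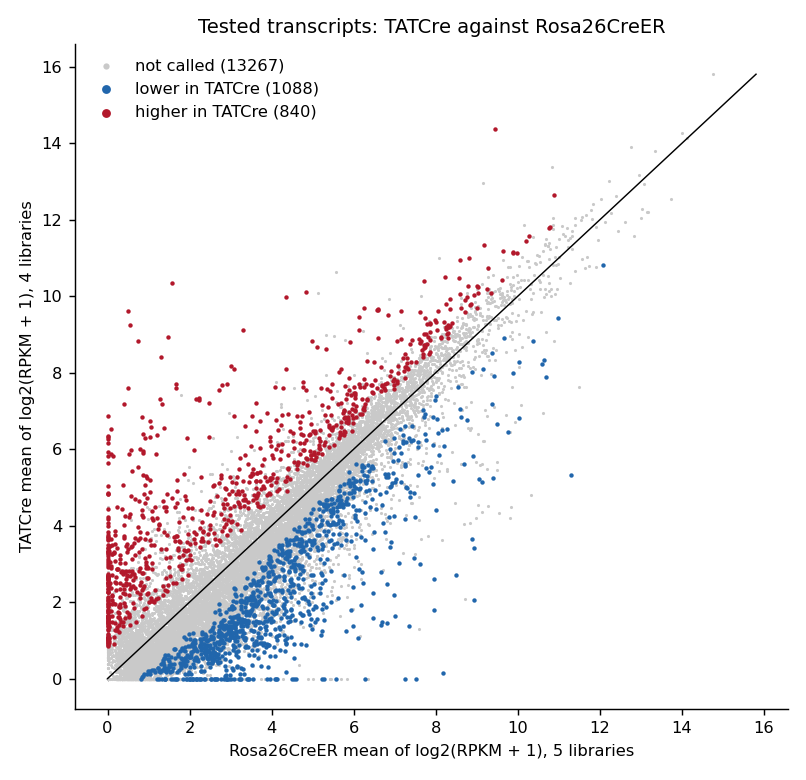
Each point is a tested transcript, with the mean log2(RPKM + 1) of the 5 Rosa26CreER libraries on the horizontal axis and of the 4 TATCre libraries on the vertical axis; the line marks equal means. The 840 transcripts called higher in TATCre (red) include many with a Rosa26CreER mean near 0, and the 1088 called lower (blue) lie mostly under a Rosa26CreER mean of 6.

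The 4 transcripts at the ends of the list show the size of the differences. They are the first 2 in each direction among calls with a mean of at least 5 RPKM in the higher group, no overlap between the groups and a recovered length of at least 300 bases, of which there were 494 higher and 474 lower. Since they were chosen by this contrast, their levels in these 9 libraries are a description. The Prx1CreERT2 and Bmi1IRESCreERT2 tumours entered the filter and the estimate of spread of the same fit. Only the levels in controls, osteosarcomas and synovial sarcomas are therefore free of that choice.

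The transcript uc008hnl.2, of 1900 bases, was high in all TATCre tumours. Its level was 887 RPKM in N123-RLN, 551 in N123-Rleg, 1093 in N178-Lleg and 259 in N179-Larm. In Rosa26CreER it was listed at 0 in N1, 3.32 RPKM in N2, 0.0955 in N3, 0.274 in N4 and 0.130 in N5. The lowest TATCre library thus stood far above the highest Rosa26CreER library, and the group means differed by a log2 fold change of 8.70 (SE 1.03, adjusted p = 0.00063 by limma). The 6 controls ranged from 5.42 to 13.4 RPKM (mean 7.67 ± 3.01 SD, n = 6), so the controls lay below the TATCre and above the Rosa26CreER libraries. The Prx1CreERT2 tumours had 94.7 and 2.81 RPKM and the Bmi1IRESCreERT2 tumours 19.4 and 0, and the 7 osteosarcomas did not exceed 1.81. The 6 synovial sarcomas had 2.80 to 6.51 RPKM.

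The transcript uc012fvj.1, of 860 bases, had another order among the TATCre tumours. Its level was 345 RPKM in N123-RLN, 884 in N123-Rleg, 187 in N178-Lleg and 728 in N179-Larm. It was listed at 0 in the Rosa26CreER libraries N1, N2 and N4, and stood at 0.738 RPKM in N3 and 6.74 in N5. The groups did not overlap, and the log2 fold change came to 8.07 (SE 0.71, adjusted p = 7.6e-05 by limma). It was listed at 0 in 5 of the 6 controls and in all 7 osteosarcomas, and Chest3 had 0.780 RPKM. Both Prx1CreERT2 tumours had it, at 14.7 and 27.8 RPKM, values between those of TATCre and Rosa26CreER.

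The transcript uc009nko.1, of 663 bases, was near absent from TATCre tumours. It was listed at 0 in 3 of them and had 0.476 RPKM in N123-RLN, which is 3 recovered reads. In Rosa26CreER its level was 1381 RPKM in N1, 839 in N2, 387 in N3, 20.6 in N4 and 212 in N5, a wide range within the group. This gave a log2 fold change of -8.04 (SE 1.07, adjusted p = 0.0013 by limma). With voom on the recovered reads the call was lost (adjusted p = 0.0833). All 6 controls were listed at 0, while the Prx1CreERT2 tumours had 77.4 and 6.23 RPKM and the Bmi1IRESCreERT2 tumours 103 and 175. Of the 7 osteosarcomas, 6 were listed at 0 and Col1CreRb1p53N22 had 5.41 RPKM. Synovial sarcomas reached at most 0.270 RPKM.

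The transcript uc007xee.1, of 305 bases, was listed at 0 in all 4 TATCre tumours, all 6 controls and all 7 osteosarcomas. The Rosa26CreER tumours had 64.7, 73.5, 103, 128 and 42.5 RPKM in N1 to N5 (mean 82.4 ± 33.5 SD, n = 5). No fold change is given against a group listed at 0, and the limma adjusted p was 6.3e-07. It was also present in the other 4 clear cell sarcomas, at 48.8 and 27.1 RPKM in Prx1CreERT2 and 34.2 and 34.6 in Bmi1IRESCreERT2, and reached at most 0.881 RPKM in synovial sarcoma. Among the clear cell sarcomas, the TATCre tumours were thus the 4 of 13 in which it was listed at 0.

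**Figure D2:**
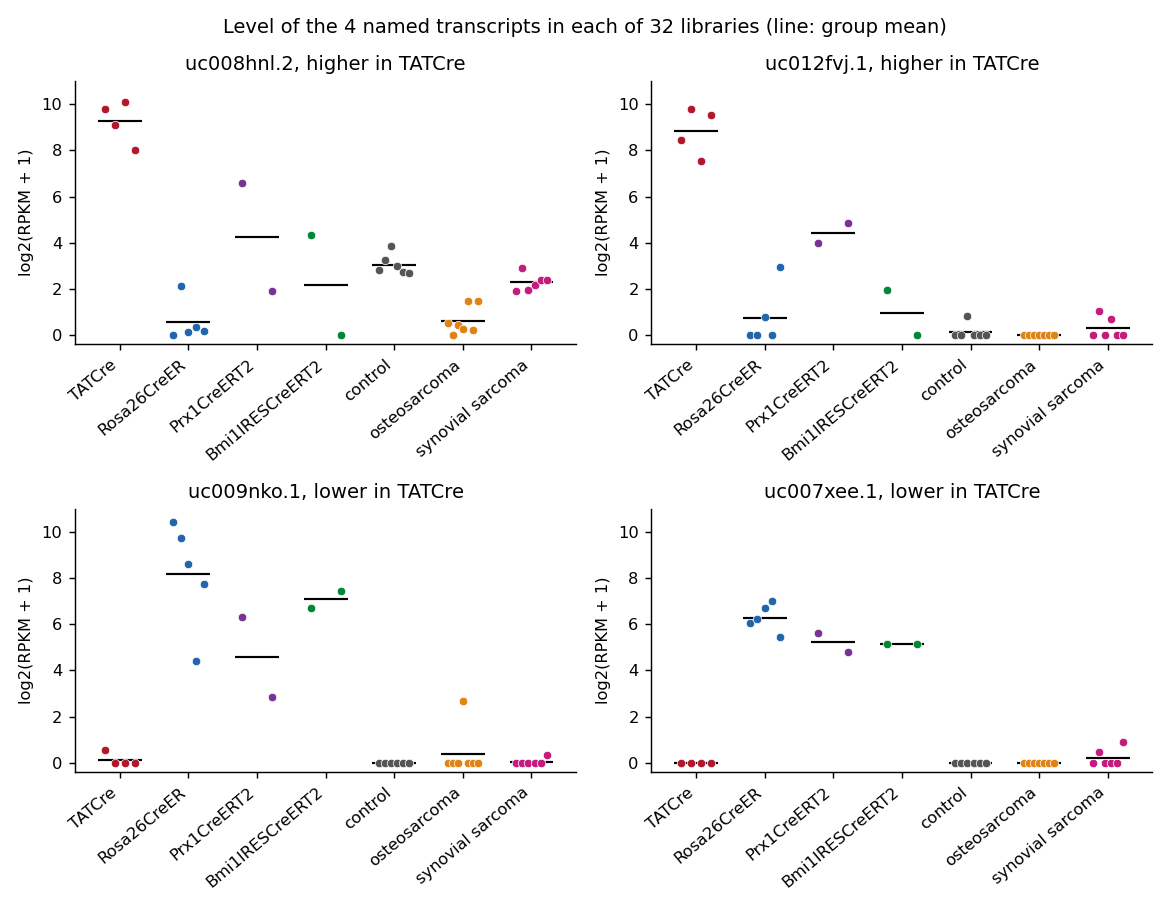
Points are libraries, the vertical axis is log2(RPKM + 1), lines are group means, and each panel is 1 transcript. The upper 2 transcripts are high in all 4 TATCre libraries, and the lower 2 are at or near 0 in TATCre and in the 6 controls but above 0 in the 9 other clear cell sarcomas.

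A pattern of presence in one group and absence from the other was rarer than the count of calls. It was set after the values were seen, as at least 5 RPKM in every library of one group and under 1 in every library of the other, among 13249 tested transcripts of at least 100 bases. TATCre alone had 20 such transcripts and Rosa26CreER alone 5. None of the 25 was restricted to that Cre group over the whole series, since each reached 1 RPKM in at least 1 of the other libraries. All 6 controls were under 1 RPKM for 9 of the 20 and for 3 of the 5. Both Bmi1IRESCreERT2 tumours had at least 5 RPKM for 0 of the 20 and 4 of the 5, and both Prx1CreERT2 tumours for 2 of the 20 and 4 of the 5.

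The differences were set beside control tissue by where the control mean lay. For calls at least 2-fold higher in TATCre, the control mean lay below both tumour groups at 54.3%, between them at 40.5% and above both at 5.14%. Over all tested transcripts these shares were 51.9%, 24.3% and 23.8%. Calls of at least 2-fold have a wider gap between the tumour groups by choice. That alone puts more control means between the groups, so the larger share is no result about the controls. For calls at least 2-fold lower in TATCre, controls lay below both at 36.1%, between at 47.9% and above both at 16%. The control mean was nearer to TATCre than to Rosa26CreER at 14.7% of the higher and 62.6% of the lower calls. Uncalled transcripts gave 25.4% where the TATCre mean was higher and 61.2% where it was lower, so the lower calls were close to the uncalled ones.

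The other clear cell sarcomas lay nearer to Rosa26CreER at most of the 2-fold calls, and also over all tested transcripts. The Bmi1IRESCreERT2 mean was nearer to TATCre at 6.90% of the higher and 18.4% of the lower calls. Uncalled transcripts gave 22.7% where the TATCre mean was higher and 36.3% where it was lower, and all tested transcripts 29.4%. The Prx1CreERT2 mean was nearer to TATCre at 22.3% of the higher and 39.3% of the lower calls, beside 31.1% and 47.2% of the uncalled transcripts and 40.2% of all tested. Each of these groups has 2 libraries, and these shares were not tested.

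The calls also took up unequal shares of the reads, given as a description because these libraries chose them. Transcripts called higher held 16.2 to 18.4% of the reads in TATCre, 4.92 to 7.07% in Rosa26CreER and 2.09 to 3.38% in controls. Those called lower held 2.52 to 3.89% in TATCre, 9.94 to 14.6% in Rosa26CreER and 2.66 to 3.10% in controls.

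To place the difference among tissues, 4 reference sets were formed from the 23 libraries that are neither TATCre nor Rosa26CreER. Each holds transcripts at least 2-fold higher in 1 type than in each of the other 3 (limma, adjusted p under 0.05). The Prx1CreERT2 and Bmi1IRESCreERT2 libraries also entered the estimate of spread of the fit that made the calls. The sets, above all the clear cell set, are therefore not fully independent of the calls. The osteosarcoma set had 305 members, of which 230 passed the filter on low values of the contrast, 37 were higher in TATCre (12.1% of all members, 16.1% of those tested) and 5 lower (1.64%, or 2.17% of those tested). The synovial sarcoma set had 733 members, 515 of them tested, with 77 higher (10.5%, or 15% of those tested) and 21 lower (2.86%, or 4.08%). The set of the Prx1CreERT2 and Bmi1IRESCreERT2 clear cell sarcomas had 556 members, all tested, with 33 higher (5.94%) and 83 lower (14.9%). The control set had 479 members, 354 tested, with 11 higher (2.30%, or 3.11% of those tested) and 8 lower (1.67%, or 2.26%). Against the 5.53% and 7.16% of all tested transcripts, both sets of other sarcomas were called higher more often, the set of the other clear cell sarcomas lower more often, and the control set less often in both directions, with no test of a set. The median log2 fold change of the tested members was 0.43 in the osteosarcoma set, 0.01 in the synovial sarcoma set, -0.57 in the clear cell set and -0.29 in the control set, beside -0.28 over all tested.

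A member low in the Prx1CreERT2 and Bmi1IRESCreERT2 tumours could pass the filter only through TATCre or Rosa26CreER libraries. Over members that passed it in those 4 tumours alone, 25 of 181 of the osteosarcoma set were higher and 3 lower, 41 of 343 of the synovial sarcoma set were higher and 20 lower, and 7 of 285 of the control set were higher and 8 lower. All transcripts that passed in those 4 tumours gave 5.00% higher and 8.20% lower. Leaving out 1 library moved these shares, here given over all members, and the share of all tested transcripts moved too, not always in the same direction. Without TATCre N179-Larm, 6.23% of the osteosarcoma set, 6.68% of the synovial sarcoma set and 3.60% of the clear cell set were called higher, beside 2.74% of all tested, and 7.91% of the clear cell set lower, beside 2.09%. Without Rosa26CreER N2, N3 or N4 the osteosarcoma set was at 7.21% higher each, beside 3.51%, 3.04% and 3.25% of all tested. The synovial sarcoma set was at 6.82% higher without N3, beside 3.04%. Without TATCre N123-RLN the clear cell set was at 9.89% lower, beside 2.66%. The control set fell furthest without Rosa26CreER N2, to 0.209% lower, beside 3.04% of all tested. It was at 1.04% higher without TATCre N123-Rleg, TATCre N179-Larm, Rosa26CreER N3 or N4 each, beside 4.32%, 2.74%, 3.04% and 3.25%.

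The mean level of each set in each library gave a test with the library as the unit. The osteosarcoma set had a mean log2(RPKM + 1) of 3.05 ± 0.16 in TATCre (SD, n = 4), 2.68 ± 0.12 in Rosa26CreER (n = 5) and 2.30 ± 0.43 in controls (n = 6). All 4 TATCre libraries (2.88 to 3.23) were at or above the highest Rosa26CreER library (2.88). The difference of 0.37 had an exact permutation p of 0.0159 and an adjusted p of 0.0952 over 8 library measures, so it did not pass. The clear cell set was at 2.92 ± 0.21 in TATCre, 3.45 ± 0.18 in Rosa26CreER and 0.92 ± 0.12 in controls (difference -0.53, exact permutation p = 0.0238, adjusted p = 0.0952). The synovial sarcoma set was at 1.59 ± 0.26 in TATCre and 1.43 ± 0.17 in Rosa26CreER (exact permutation p = 0.310), and the control set at 1.94 ± 0.18 and 2.15 ± 0.49 (exact permutation p = 0.579) against 5.14 ± 0.21 in controls. Depth, the number of transcripts above 0, the share of RPKM in transcripts under 100 bases and the mean over tested transcripts did not pass either (adjusted p 0.394, 0.394, 0.929 and 0.169, exact permutation tests). With 126 arrangements, the smallest p that this two-sided test can give is 0.00794. These arrangements count N123-RLN and N123-Rleg as separate units, though they may share an animal. With them averaged, the adjusted p was 0.143 for both the osteosarcoma and the clear cell set (exact permutation).

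**Figure D3:**
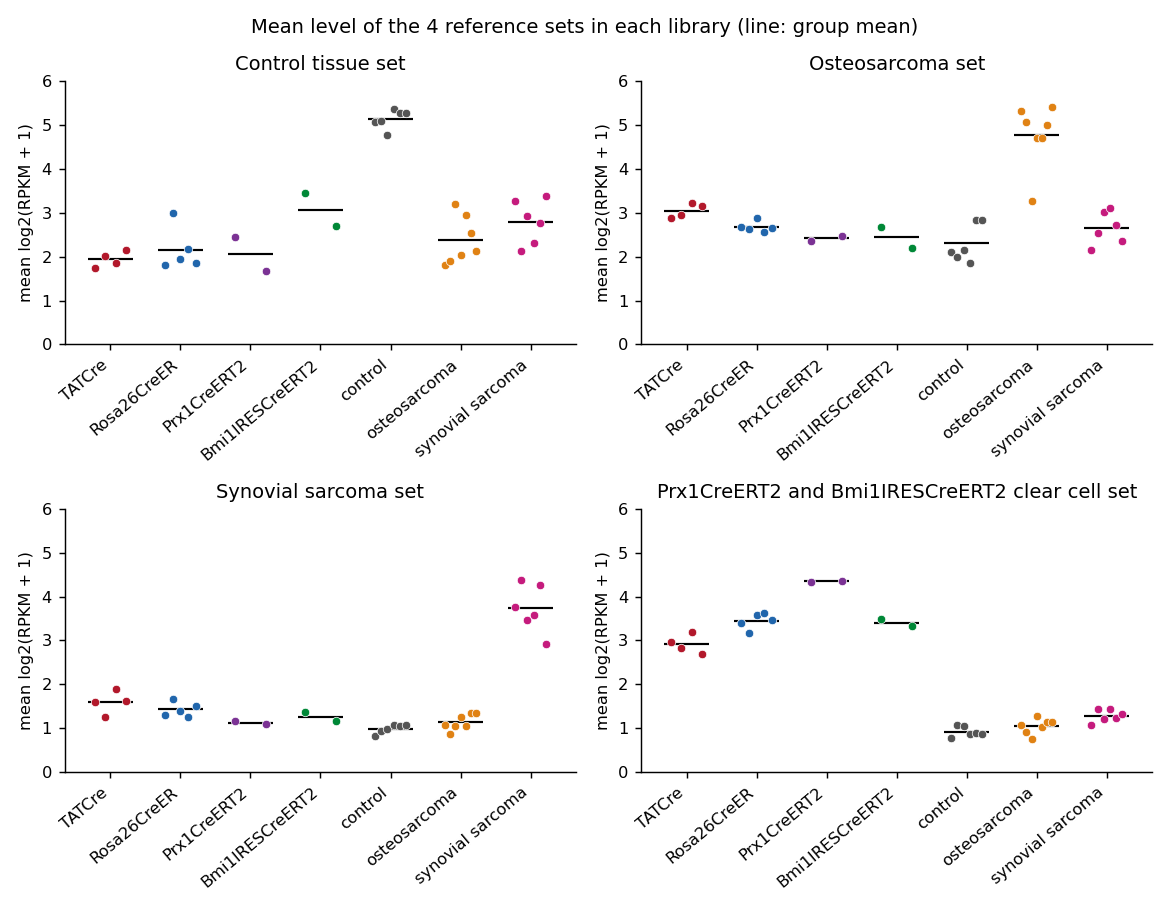
Points are libraries, lines are group means, and the vertical axis is the mean log2(RPKM + 1) over the members of a set. TATCre and Rosa26CreER libraries lie far below the controls in the control set, the TATCre libraries lie at 2.88 to 3.23 in the osteosarcoma set, and in the clear cell set Rosa26CreER lies above TATCre on average.

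The number of calls depended on single libraries. Without TATCre N178-Lleg the count was 3212 (1060 higher, 2152 lower). Without TATCre N179-Larm it was 728, without N123-RLN 918 and without N123-Rleg 1155. Without Rosa26CreER N2 it was 980, without N3 865 and without N4 966, while without N1 it was 2149 and without N5 1477. Higher calls were the majority without TATCre N123-RLN (56.2%), N123-Rleg (56.5%) or N179-Larm (56.7%). The same held without Rosa26CreER N2 (53.6%), N3 (52.9%) or N4 (50.6%). Without TATCre N178-Lleg, Rosa26CreER N1 or Rosa26CreER N5 the share of higher calls was 33%, 37.3% and 47%. Averaging the 2 N123 libraries and counting them as 1 gave 1228 calls, 653 higher and 575 lower, of which 1155 were among the 1928 with the same sign. A group of 357 higher (2.35% of all tested) and 226 lower transcripts (1.49%), found after the alternatives were seen, was called with the same sign in all of 13 fits. These were the first fit, the 9 with a library left out, the average of N123 and both rescalings, which reuse the same libraries. Fits with only the 9 libraries, with library weights or by voom were not among them. The median log2 fold change of the group was 2.35 for the higher and -2.22 for the lower transcripts.

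**Figure D4:**
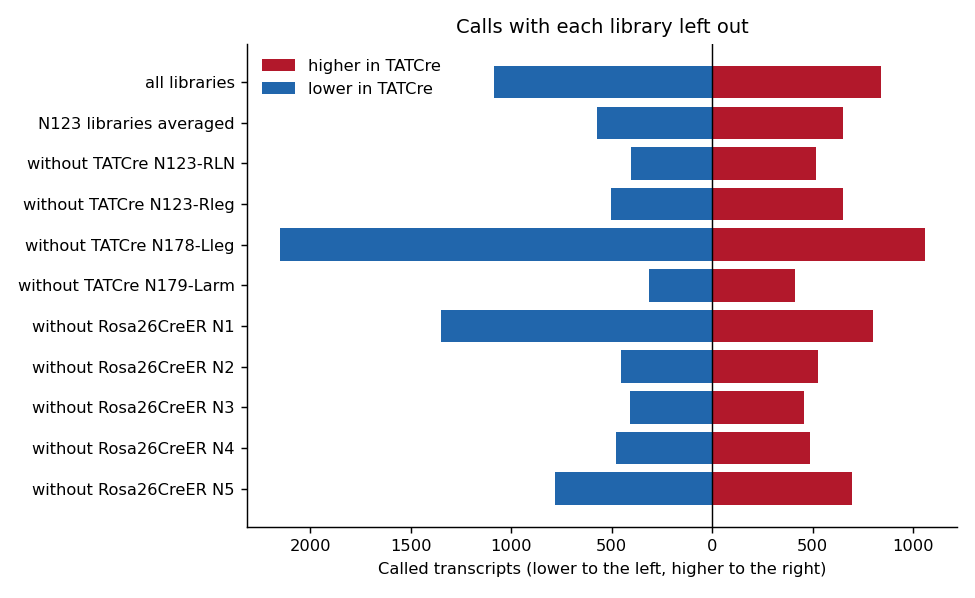
Bars give the number of transcripts called higher (right) and lower (left) in TATCre with all libraries, with the N123 libraries averaged and with each of the 9 libraries left out. The total runs from 728 without TATCre N179-Larm to 3212 without TATCre N178-Lleg.

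The 2 libraries numbered N123 were not the closest TATCre pair. Over 8039 transcripts with a mean of at least 50 recovered reads in the 13 clear cell sarcomas, 29.3% differed at least 2-fold between N123-RLN and N123-Rleg. Between N123-RLN and N179-Larm it was 9.86%, and between N123-RLN and N178-Lleg 12.1%. N123-Rleg stood apart from each of the others, with 25.8 to 34.6% of transcripts at least 2-fold different, whereas pairs of Rosa26CreER libraries gave 8.96 to 21.2%. Over the same transcripts, Spearman's rho had a median of 0.914 over 6 pairs within TATCre, 0.897 over 10 pairs within Rosa26CreER and 0.824 over the 20 pairs between them. These are descriptions across transcripts, which are not independent.

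Some libraries also lay near another tissue type. Over all tested transcripts, TATCre N178-Lleg was nearest to a synovial sarcoma library (rho 0.889) and Rosa26CreER N2 to another (rho 0.902). Over the 8039 transcripts with more reads, N178-Lleg was nearest to TATCre N123-RLN (rho 0.944) and N2 to a Prx1CreERT2 library (rho 0.921). N2 had the highest mean of the control set among the 9 libraries, 2.99 beside 1.802 to 2.168 in the other Rosa26CreER libraries. Without both N178-Lleg and N2 the count was 1993.

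Values listed at 0 were not spread evenly. Where the other clear cell sarcomas had a median of 10 to 20 reads, the TATCre libraries were listed at 0 in 27.96% of values in N123-RLN, 49.3% in N123-Rleg, 6.49% in N178-Lleg and 30.3% in N179-Larm. The Rosa26CreER libraries gave 15.8%, 8.61%, 6.51%, 16.03% and 8.89% in N1 to N5. A TATCre library was listed at 0 for 425 of the 1088 lower calls, and a Rosa26CreER library for 295 of the 840 higher calls. Counting any of the 9 libraries gave the same 425 and 295, beside 5513 of all 15195 tested transcripts. The share called lower was 6.50% among transcripts with under 20 mean reads, 9.30% at 20 to 49, 7.33% from 50 to under 500 and 6.94% at 500 or more. The share called higher was 2.85%, 4.15%, 6.77% and 7.94%. Over transcripts with at least 50 mean reads, the fit called 1470 of 8039, 688 higher and 782 lower. Of the 1088 lower calls, 663 were above 0 in all 9 libraries, as were 545 of the 840 higher calls. A fit over the 9548 transcripts above 0 in all 13 clear cell sarcomas called 1559, 641 higher and 918 lower. The cause of the balance of higher and lower calls was not tested.

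**Figure D5:**
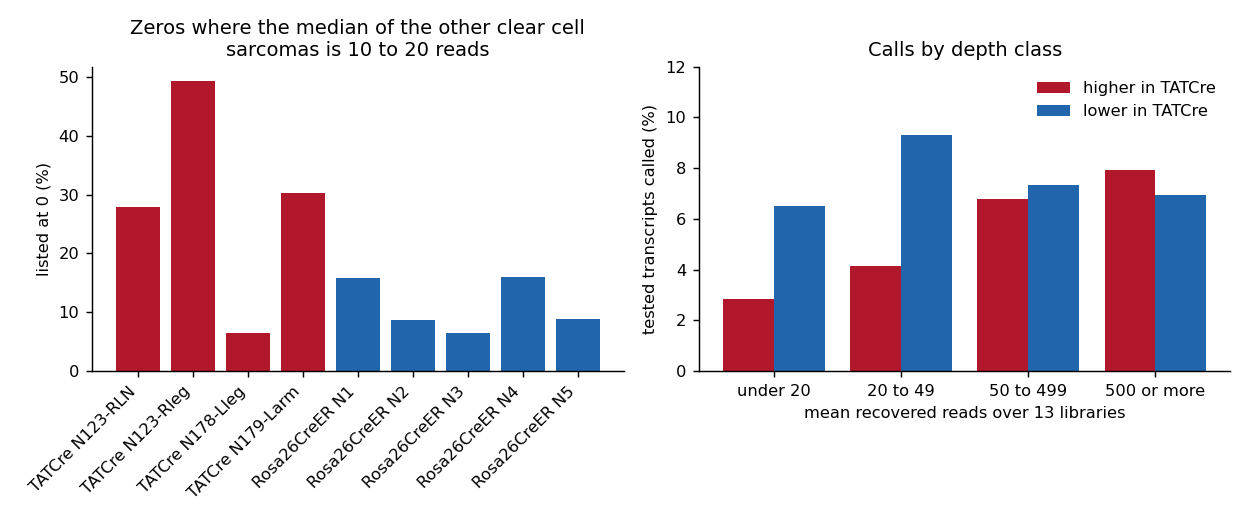
The left panel gives, for each library, the percentage of values listed at 0 where the other clear cell sarcomas have a median of 10 to 20 reads; it is highest in TATCre N123-Rleg (49.3%) and lowest in TATCre N178-Lleg (6.49%). The right panel gives the percentage of tested transcripts called higher or lower in TATCre by mean recovered reads, with lower calls ahead in the 3 classes under 500 reads (7.33% against 6.77% from 50 reads up) and higher calls ahead at 500 reads or more (7.94% against 6.94%).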

How the data were processed

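Per the labels' protocols, total RNA was extracted with a Qiagen RNeasy kit and DNase, and an Illumina TruSeq kit was used for sequencing libraries. The submitters' processing notes name CASAVA 1.8.2, Novoalign 2.07.03 and mm9; no source used here names the counting program. RPKM values were deposited by the authors for 55419 mouse transcripts in 32 libraries, with 35628 transcripts listed at 0 throughout. A deposited table of human tumours was not used here. RPKM is no count, so tests ran on log2(RPKM + 1) with limma 3.58.1 (R 4.3.3; lmFit, eBayes with trend, two-sided, Benjamini-Hochberg, threshold 0.05) over the 13 clear cell sarcomas in 4 groups, for transcripts of at least 1 RPKM in at least 2 of them. The direction is TATCre minus Rosa26CreER. Library measures were compared by exact permutation. The fit was tested on simulated data.

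Depth, lengths and whole reads were recovered from the RPKM steps, which succeeded for 16397 of 16398 transcripts with 6 or more libraries above 0; the shortest length was 2 bases. Recovered reads made up at least 99.7% of each recovered depth, so depth here counts reads assigned to listed transcripts. No source used here says what the lengths and the values at 0 stand for. Overlapping transcripts of 1 locus may share or split reads. The transcripts named are the first 2 in each direction by log2 fold change, among calls with at least 5 RPKM in the higher group, no overlap and at least 300 bases. Prepared lists of genes and cell type markers could not be used without gene names.

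The members, lists and tests were chosen with earlier results of these data known. The reference sets were first computed with a filter that also used the 13 clear cell sarcomas; that was replaced, after the values were seen, by a filter on the 23 other libraries, as the plan for the sets had stated, and both are reported. Also chosen after seeing the data were the filter of 50 reads, the filter on values above 0 in all 13, voom, the transcripts called in 13 fits, the presence pattern, the classes by reads, the read shares, the zero shares and the comparisons of library pairs. Results were recomputed with 2 other pseudocounts, 2 filters, a length minimum, 2 scalings, 2 other choices of libraries, no trend, N123 averaged, library weights, 2 libraries left out together and each library left out in turn.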

Additional observations from a re-analysis of the deposited data

Results flagged for a closer look

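Groups of 4 to 6 libraries, 36 in all, were taken to search for a library far from the rest, and 4 were found. Groups listed at 0 in every library could not be searched. A group with 1 value above 0 and the rest at 0 is always found. The usual chance rate of about 1 in 20 therefore does not apply to transcripts near 0. All 4 are single values of transcripts that are otherwise near 0 in that group. For uc009nko.1, TATCre N123-RLN had 0.476 RPKM and the other TATCre libraries were listed at 0. For uc008hnl.2, Rosa26CreER N2 had 3.32 RPKM, and the next library 0.274. For uc012fvj.1, Rosa26CreER N5 had 6.74 RPKM and the next 0.738, and the control Chest3 had 0.780 RPKM while the other controls were listed at 0.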

How the results depend on the processing

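Dependence on single libraries was large. With each library left out in turn, the calls ranged from 728 to 3212, the higher ones from 413 to 1060 and the lower ones from 315 to 2152. Averaging N123 gave 1228 (653 higher, 575 lower) and library weights 3604 (1341 higher, 2263 lower); with only the 9 libraries 725 were lower, and after quantile normalization 578. The other alternatives stayed within 1.5 times of each count. The 3 named transcripts uc008hnl.2, uc012fvj.1 and uc007xee.1 kept direction and call in all 24 alternatives each, and uc009nko.1 in 23, the exception being voom on recovered reads (log2 fold change -11.24, adjusted p = 0.0833, limma); its adjusted p ranged from 1.55e-08 to 0.0833. Each was untested in the fit that needs values above 0 in all 13.

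Of the reference sets, leaving out a library gave 6.23 to 13.8% higher and 0.984 to 2.62% lower for osteosarcoma. For synovial sarcoma it gave 6.68 to 9.96% and 0.955 to 5.18%. The other clear cell sarcomas gave 3.60 to 6.12% and 7.91 to 20.7%, and controls 1.04 to 2.92% and 0.209 to 2.30%. All tested transcripts of the same fits gave 2.74 to 7.06% higher and 2.09 to 14.3% lower. Set shares in this paragraph are over all members, tested or not, except where the members tested are named, so the 2 bases differ. Over the members tested, the control set gave 1.41 to 3.97% higher and 0.308 to 3.11% lower. For sets of at least 4-fold the control set had 1.42% higher and 0.948% lower, and the osteosarcoma set 0.917% lower. With N123 averaged the control set had 1.25% and 0.835%, and the synovial sarcoma set 1.36% lower, beside 4.32% higher and 3.81% lower of all tested. Median-ratio scaling gave 1.04% lower for the control set, beside 5.81% of all tested. The filter of 50 reads left fewer members tested, so shares over all members fell to 1.46% higher and 1.04% lower in the control set, 0.328% lower in the osteosarcoma set and 6.28% higher in the synovial sarcoma set. Over the 195, 134 and 260 members tested there they were 3.59%, 2.56%, 0.746% and 17.7%, beside 8.56% higher and 9.73% lower of all tested. Filtered on the 13 clear cell sarcomas too, 16%, 15.1%, 6.02% and 3.44% of the osteosarcoma, synovial sarcoma, clear cell and control sets were higher. The sets were followed over 13 fits, which were the first fit, the 9 with a library left out, N123 averaged, median-ratio scaling and the filter of 50 reads. Quantile normalization was not among them. Over the members tested, the osteosarcoma and synovial sarcoma sets had a higher share called higher than all tested transcripts of the same fit in 13 of 13. The clear cell set had a higher share called lower in 13, and a higher share called higher in 10.

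Of the 8 library measures, the osteosarcoma set passed with median-ratio scaling (difference 0.44, adjusted p = 0.0397, exact permutation) and ranged from 0.31 to 0.42 with a library left out. It did not pass in 10 of 12 alternatives, the clear cell set in 11 of 12 and the mean over tested transcripts in 10 of 11. With N123 averaged, the osteosarcoma and clear cell sets had an adjusted p of 0.143 each (exact permutation). Without Rosa26CreER N3 or N5 it was 0.229 for both sets. Without TATCre N178-Lleg, 3 measures passed at an adjusted p of 0.0476 (exact permutation): the osteosarcoma set, the clear cell set (-0.62 to -0.46 over the libraries left out) and the mean over tested transcripts (-0.38 to -0.19). The share of RPKM under 100 bases changed sign with N123 averaged (0.0838) and ranged from -1.58 to 0.683 with a library left out. The cause of these changes was not tested.

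No paired analysis was possible because TATCre and Rosa26CreER titles share no number.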
